A study of Mus musculus with 8 samples.

Results

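Desmosomes are cell junctions that tie the intermediate filaments of neighbouring cells together, and 7 genes that encode their cadherins and plaque proteins were followed here: Dsc1, Dsc2, Dsc3, Dsg2, Dsp, Pkp2 and Jup. These 7 of the 48709 genes in the count tables were chosen by their symbols and on earlier results of the very contrast described here, so their differences between the groups, and where they lie against the threshold of the fit over all genes, are given as a description and not as a test. The samples are whole pieces of dorsal telencephalon (dTel, the future cortex) from C57BL/6J mice at postnatal day 3, profiled by RNA sequencing in 4 control and 4 dcKO_hGFAP-Cre samples. The dcKO_hGFAP-Cre mice are BAF155 fl/fl; BAF170 fl/fl with the hGFAP-Cre transgene and lack both scaffold subunits of the BAF chromatin remodelling complex where Cre has acted. According to the methods of the study its controls are BAF155 fl/+; BAF170 fl/+ and carry Cre as well, whereas the series' design text calls them wild type. A human GFAP promoter drives this Cre, which is active in most cells of the dTel before birth, so cells outside that lineage keep both genes, and the mutants die soon after birth. Nothing in the labels says which samples come from which litter or animal, and p-values then measure the spread between these samples.

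In a desmosome, desmocollins (Dsc) and desmogleins (Dsg) of opposing cells bind each other across the gap, and inside each cell plakoglobin (Jup) and plakophilins (Pkp) hold their tails to desmoplakin (Dsp), which grips the intermediate filaments. The junction is best known from epidermis and heart muscle. In brain it is known from the arachnoid layer of the meninges and from the epithelium of the choroid plexus, while neurons and glia join mainly through adherens junctions, which share Jup with the desmosome.

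The total counts of control replicates 1 to 4 came to 22106718, 21126713, 31805395 and 30553135, and those of the 4 dcKO_hGFAP-Cre replicates to 22002784, 22812236, 28249608 and 32110285. Levels below are in CPM, the count of a gene scaled by edgeR's TMM method to a library of 1000000 counts, and are always listed in the order of replicates 1 to 4. A gene with 3 counts lies between 0.0906 and 0.148 CPM, depending on the sample, and floors and intervals given here cover counting error only. Every lane of the sequencer held both groups, with the first 2 replicates of each on lane 5, the third on lane 6 and the last on lane 7.

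The deleted genes were read first, as a check of the labels. Smarcc1, which encodes BAF155, measured 143.5, 161.6, 170.5 and 160.4 CPM in the controls and 79.4, 73.6, 86.9 and 84.7 CPM in dcKO_hGFAP-Cre. Smarcc2, which encodes BAF170, measured 500.3, 471.5, 489.1 and 469.4 CPM in the controls and 291.4, 266.3, 256 and 319.2 CPM in dcKO_hGFAP-Cre. Each was lower in all 4 mutant samples than in any control, as the labels say. Smarcc1 fell by 0.97 (SE 0.08) and Smarcc2 fell by 0.77 (SE 0.08) on the log2 scale, with adjusted p = 5.44e-06 and 2.28e-05 in edgeR's quasi-likelihood test over 16525 genes. Smarcc1 shares 123 bases of exon with Dhx30 on the other strand, and reads from cells without Cre activity and from transcripts that lack the floxed part cannot be told apart in gene counts. Likewise, for every gene below, fewer cells that express it and less RNA per cell cannot be told apart in bulk tissue.

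Among the desmosomal genes, the desmocollin Dsc3 and the desmoglein Dsg2 were lower in every mutant sample than in any control, desmoplakin was higher in every mutant sample, and plakophilin 2 lay lower by a narrow margin. Dsc2 was higher and plakoglobin lower on average, with overlapping samples. Of the 7 members, 6 passed the filter on low counts: 4 were past edgeR's threshold as lower (18.9% of all genes tested were) and 2 as higher (18.6% of all genes tested). The groups did not overlap for 3 members as lower (17.7% of all genes tested) and for 1 as higher (16.7%). Since the members were chosen on this contrast, nothing is read from these counts. The filter asks for about 10 counts in at least 4 samples, and Dsg2, with 7 counts in dcKO_hGFAP-Cre replicate 2, met it in all samples of only the control group, while the other 5 met it in both groups. The median log2 fold change of the 6 was -0.62, beside 0.02 over all genes tested.

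**Figure D1:**
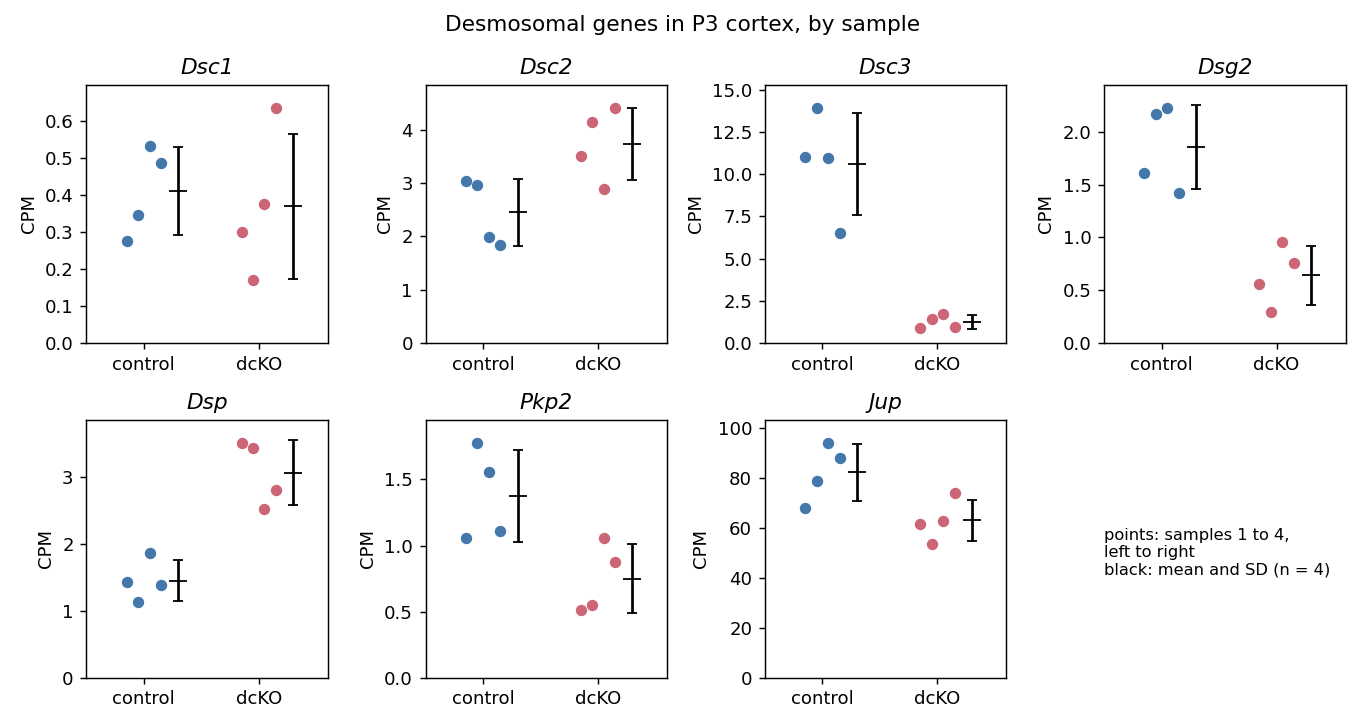
Level of each desmosomal gene in CPM (vertical axes, from 0) in the 4 control and the 4 dcKO samples; points are samples, and black marks are the mean and SD of a group. Dsc3 spans 6.53 to 13.9 CPM in control and 0.855 to 1.71 CPM in the mutants, whereas Dsp spans 1.13 to 1.86 CPM in control and 2.52 to 3.51 CPM in the mutants.

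Dsc3 is the desmocollin known from the basal layers of stratified epithelia. It measured 11, 13.9, 11 and 6.53 CPM in the controls and 0.855, 1.40, 1.71 and 0.966 CPM in dcKO_hGFAP-Cre. The lowest control was well above the highest mutant sample, and the counts behind the values ran from 188 to 330 in the controls and from 20 to 50 in the mutants. On average Dsc3 was 10.6 ± 3.04 CPM in control and 1.23 ± 0.394 CPM in dcKO_hGFAP-Cre (SD, n = 4), which is 8.54-fold lower, or a log2 fold change of -3.09 (SE 0.27). Within the lanes the log2 ratio of mutant to control was -3.47 on lane 5, -2.68 on lane 6 and -2.76 on lane 7. The lanes thus gave the same direction, although lanes 6 and 7 hold 1 sample of each group.

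Dsc2 is the desmocollin found in nearly all tissues that have desmosomes, heart included. It measured 3.04, 2.96, 1.99 and 1.84 CPM in the controls and 3.51, 4.15, 2.90 and 4.41 CPM in dcKO_hGFAP-Cre. The groups overlapped, because dcKO_hGFAP-Cre replicate 3 was below control replicates 1 and 2. Means were 2.46 ± 0.628 and 3.74 ± 0.677 CPM (SD, n = 4), a log2 fold change of 0.62 (SE 0.22) or 1.54-fold higher, and the log2 ratios within lanes 5, 6 and 7 were 0.35, 0.54 and 1.26. Leaving out control replicate 3 or 4 (log2 fold change 0.53 and 0.49) or dcKO_hGFAP-Cre replicate 1, 2 or 4 (0.64, 0.56 and 0.54) put Dsc2 outside the threshold, so its place past it rests on single samples, and 1 member in place of 2 was then past it as higher.

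Dsc1, the desmocollin of the outer epidermis, was close to the limit of what these libraries resolve. Its 43 counts over the 4 controls and 43 over the 4 mutants correspond to 0.276, 0.345, 0.531 and 0.486 CPM in the controls and 0.299, 0.169, 0.375 and 0.634 CPM in dcKO_hGFAP-Cre. The groups overlapped entirely in the sense that both the lowest and the highest sample were mutants. After scaling for depth the ratio of mutant to control counts was 0.92, with a 95% interval from 0.590 to 1.44 from counting error, so a difference was not detectable at this depth. The filter on low counts removed Dsc1 from the test.

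Because the desmocollins have exons of similar summed length, their make-up can be compared per kilobase. Dsc3 supplied 76.4%, 80.4%, 80.8% and 73.1% of the summed desmocollin level (CPM per kilobase of exon) in the controls, and 17.9%, 24.0%, 33.6% and 15.7% in dcKO_hGFAP-Cre. Dsc2 supplied 21.6%, 17.5%, 15% and 21.1% in the controls, and 75.3%, 72.9%, 58.5% and 73.3% in dcKO_hGFAP-Cre. In every control Dsc3 was thus the main desmocollin transcript, and in every mutant sample Dsc2 was. The ratio of Dsc2 to Dsc3 per kilobase was 0.283, 0.218, 0.186 and 0.289 in the controls and 4.2, 3.04, 1.74 and 4.67 in the mutants. The summed level itself was 2.67, 3.20, 2.51 and 1.65 CPM per kilobase in the controls and 0.882, 1.08, 0.940 and 1.14 CPM per kilobase in dcKO_hGFAP-Cre, so the larger share of Dsc2 went with a smaller total.

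**Figure D2:**
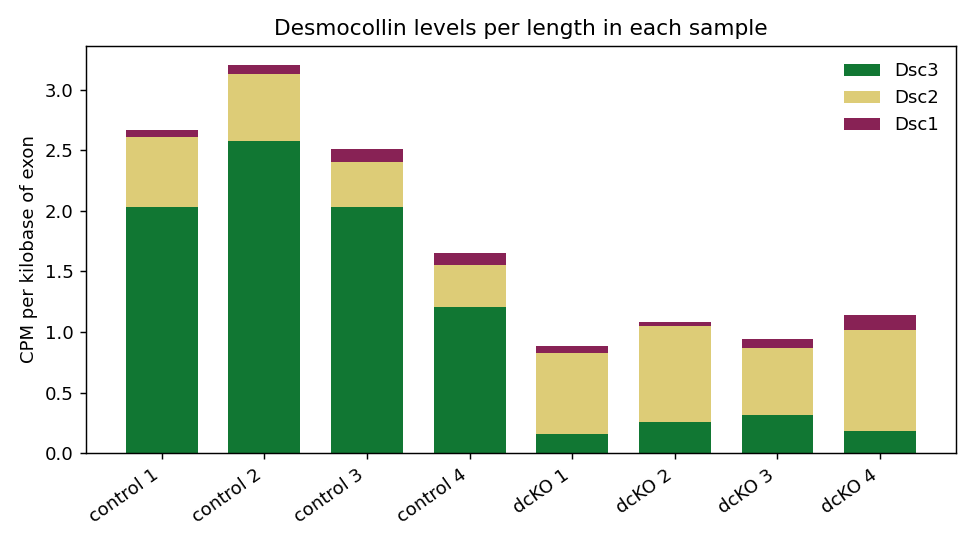
Stacked level of the 3 desmocollin genes in each sample, in CPM per kilobase of exon. Dsc3 makes up between 73.1% and 80.8% of a control bar and between 15.7% and 33.6% of a dcKO bar, and the dcKO bars reach 0.882 to 1.14 CPM per kilobase.

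Dsg2 is the desmoglein of simple epithelia and heart muscle. It measured 1.61, 2.17, 2.22 and 1.42 CPM in the controls and 0.556, 0.297, 0.955 and 0.755 CPM in dcKO_hGFAP-Cre. All mutant samples were below all controls, with 7 to 28 counts each against 35 to 67. Means of 1.86 ± 0.400 and 0.641 ± 0.281 CPM (SD, n = 4) correspond to 2.83-fold lower, or a log2 fold change of -1.50 (SE 0.31), and the log2 ratios within lanes 5, 6 and 7 were -2.15, -1.22 and -0.92. An antisense gene, Gm16090, shares 330 bases of exon with Dsg2. The library kit does not mark the strand, so reads in these bases cannot be assigned to either gene by strand. Gm16090 itself held 12 counts over all 8 samples.

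The other desmogleins were nearly silent. Over the 4 controls and the 4 mutants, Dsg1a had 3 and 10 counts, Dsg1b 2 and 1, Dsg3 5 and 0, and Dsg4 1 and 0, all too few for the test. Dsg1c differed from these, with 1, 1, 0 and 0 counts in the controls and 15, 4, 30 and 19 counts in dcKO_hGFAP-Cre. Every mutant sample thus had more Dsg1c reads than any control, and the ratio of the summed counts scaled for depth was 31.4, with a 95% interval from 8.36 to 264 from counting error. The edgeR filter removed Dsg1c from the main test. In the 8 alternative fits that kept it, among them DESeq2 (log2 fold change 4.88) and edgeR without a filter (4.63), its adjusted p ran from 1.41e-06 to 0.00403. Where those fits filtered on low counts, it passed through the mutant samples, where it is high, so these values are no support of their own. Dsg1a, Dsg1b and Dsg1c are close copies of each other, and how reads that match several genes were counted is not given in the sources used here, so the split among them is uncertain.

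The desmosomal cadherin genes lie next to each other on mouse chromosome 18, from Dsc3 (ENSMUSG00000059898, chr18:19960930-20002351, minus strand) through Dsc2 (ENSMUSG00000024331, chr18:20030633-20059554, minus) and Dsc1 (ENSMUSG00000044322, chr18:20084184-20114871, minus) to Dsg2 (ENSMUSG00000044393, chr18:20558074-20604521, plus), in coordinates of GRCm38 (mm10). This cluster spans 643.6 kb and holds 9 protein-coding genes. Of the 17 protein-coding genes in the cluster and within 1 Mb of it, 9 were tested, and 6 of those are not members. Of these 6, Garem1, an adaptor of growth factor signalling, fell by 0.86 (SE 0.12, edgeR adjusted p = 1.76e-04), and B4galt6, which makes lactosylceramide, fell by 0.54 (SE 0.09, edgeR adjusted p = 6.16e-04). Trappc8, Rnf138 and Klhl14, at log2 fold changes of -0.22, 0.22 and -0.18, did not pass the test. The median over the 6 was -0.20, beside 0.02 over all genes. The last of the 6 is Ttr, the thyroid hormone carrier that the choroid plexus makes in large amounts, with 3.18, 9.37, 0.0664 and 1.81 CPM in the controls and 584, 1128, 15.8 and 1.72 CPM in dcKO_hGFAP-Cre. Its level in the mutant samples thus ranged over orders of magnitude, with replicate 4 among the controls, and it did not pass the test (edgeR adjusted p = 0.0568). Without dcKO_hGFAP-Cre replicate 3 or 4 it did (adjusted p = 0.0466 and 0.0273 in edgeR), as it did in DESeq2 with all samples (adjusted p = 2.72e-04), and over all alternatives its adjusted p ran from 2.72e-04 to 0.608. As a description, Dsc3, Dsg2, Garem1 and B4galt6 were lower in dcKO_hGFAP-Cre, and Dsc2 and Dsg1c were higher on average. Dsc2 had overlapping groups and lost its side of the threshold in 7 of 18 fits, and Dsg1c was not in the main test. Of the 6 tested neighbours that are not members, 2 were past the threshold as lower and 0 as higher. Whether the cluster shares 1 direction was not tested.

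On the cytoplasmic side, the plaque genes also differed in opposite directions. Desmoplakin (Dsp), the plakin that links the plaque to intermediate filaments, measured 1.43, 1.13, 1.86 and 1.39 CPM in the controls and 3.51, 3.43, 2.52 and 2.81 CPM in dcKO_hGFAP-Cre. All mutant samples were above all controls, with 74 to 93 counts each against 23 to 56. Means were 1.45 ± 0.301 and 3.07 ± 0.479 CPM (SD, n = 4), a log2 fold change of 1.06 (SE 0.21) or 2.09-fold higher, and the log2 ratios within lanes 5, 6 and 7 were 1.44, 0.44 and 1.02. Gm10129, a gene on the other strand that shares 499 bases of exon with Dsp, held 2 counts in all.

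Plakoglobin (Jup) binds the tails of desmosomal and of classical cadherins and is the member that adherens junctions use too. It measured 68.0, 78.8, 93.8 and 88.0 CPM in the controls and 61.6, 53.5, 62.5 and 73.8 CPM in dcKO_hGFAP-Cre. Only dcKO_hGFAP-Cre replicate 4 reached into the range of the controls, where it exceeded replicate 1. Means were 82.1 ± 11.3 and 62.9 ± 8.36 CPM (SD, n = 4), a log2 fold change of -0.39 (SE 0.12) or 1.31-fold lower, and the log2 ratios within lanes 5, 6 and 7 were -0.35, -0.58 and -0.25. Leaving out control replicate 3 or 4 (log2 fold change -0.32 and -0.36) or dcKO_hGFAP-Cre replicate 1 or 2 (-0.38 and -0.32) put Jup outside the threshold, as did scaling by library totals (-0.26).

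Plakophilin 2 (Pkp2), an armadillo repeat protein that recruits desmoplakin to the junction and is the plakophilin of heart muscle, measured 1.06, 1.77, 1.56 and 1.11 CPM in the controls and 0.513, 0.551, 1.06 and 0.875 CPM in dcKO_hGFAP-Cre. The groups barely separated, since control replicate 1 and dcKO_hGFAP-Cre replicate 3 share the value 1.06 when rounded. Means were 1.38 ± 0.348 and 0.749 ± 0.262 CPM (SD, n = 4), a log2 fold change of -0.85 (SE 0.29) or 1.80-fold lower, and the log2 ratios within lanes 5, 6 and 7 were -1.41, -0.56 and -0.34. Pkp2 fell outside the threshold without control replicate 2 or 3 (log2 fold change -0.72 and -0.78), without dcKO_hGFAP-Cre replicate 1 or 2 (-0.72 and -0.74) and with library totals (-0.73), so the count of 4 members past it as lower became 2 without control replicate 3 or without dcKO_hGFAP-Cre replicate 1 or 2. The other plakophilins were barely detected, Pkp1 with 6 counts over the controls and 16 over the mutants and Pkp3 with 1 and 2.

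The promoters of 2 of the 7 members, Dsp and Jup, are shown, plaque genes of the same junction that differed in opposite directions. Both run from 250 bases before to 50 bases after the gene's start in RefSeq (GRCm38.p6), Dsp at chr13:38151044-38151343 on the plus strand and Jup at chr11:100397741-100398040 on the minus strand. Capitals mark CAGGTG or CACCTG, the box that repressors of the Snail and Zeb families are known to bind, searched on both strands.
Dsp: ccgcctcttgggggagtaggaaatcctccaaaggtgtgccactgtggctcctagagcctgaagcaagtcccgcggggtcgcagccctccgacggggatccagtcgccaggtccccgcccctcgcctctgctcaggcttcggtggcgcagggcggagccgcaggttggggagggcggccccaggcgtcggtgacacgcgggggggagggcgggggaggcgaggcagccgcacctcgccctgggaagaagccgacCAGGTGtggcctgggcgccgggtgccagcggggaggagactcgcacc
Jup: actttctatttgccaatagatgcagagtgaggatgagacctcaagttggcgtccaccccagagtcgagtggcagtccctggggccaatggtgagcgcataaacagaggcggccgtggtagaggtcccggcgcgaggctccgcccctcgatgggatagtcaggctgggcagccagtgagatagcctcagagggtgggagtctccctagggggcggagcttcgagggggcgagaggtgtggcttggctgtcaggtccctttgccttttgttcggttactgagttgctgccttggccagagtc
The Dsp promoter holds the box 1 time, 3 bases after the start, and the Jup promoter does not hold it, while 20.2% of 32851 mouse promoters of this length do. It is a special case of the E-box CANNTG, found in 72.3% of the promoters and in these 2 only where the capitals stand. The CCAAT box (CCAAT or ATTGG) occurs 2 times in Jup and not in Dsp, against 37.4% of promoters with at least 1. The grainyhead site AACCGGTT is in neither, and in 0.146% of all. The Dsp promoter is 73% G or C with 27 CpG dinucleotides and the Jup promoter 60.7% with 14, where the medians over all promoters are 52.7% and 7. Such matches describe the letters of these windows and say nothing about binding.

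Compared per kilobase of exon, the members spanned a wide range of levels. In control Jup came first at 12.8 ± 1.76 CPM per kilobase, followed by Dsc3 at 1.96 ± 0.563, Dsc2 at 0.466 ± 0.119, Pkp2 at 0.257 ± 0.0650, Dsg2 at 0.225 ± 0.0484, Dsp at 0.150 ± 0.0312 and Dsc1 at 0.0812 ± 0.0236 (SD, n = 4). Of these neighbours, Pkp2 and Dsg2, and Dsg2 and Dsp, did not differ beyond their SDs. In dcKO_hGFAP-Cre the order was Jup at 9.77 ± 1.30 CPM per kilobase, Dsc2 at 0.709 ± 0.128, Dsp at 0.318 ± 0.0496, Dsc3 at 0.228 ± 0.0729, Pkp2 at 0.140 ± 0.0489, Dsg2 at 0.0775 ± 0.0340 and Dsc1 at 0.0732 ± 0.0388 (SD, n = 4). From Dsp downward no neighbours in that order differed beyond their SDs. Dsc3 thus moved from the second to the fourth place and Dsp from the sixth to the third. Jup alone made up 76.7%, 75.8%, 81.7% and 86.3% of the summed level of the 7 genes in the controls and 87.2%, 84.1%, 86.5% and 87.2% in the mutants, so the cadherins and the other plaque genes were minor transcripts in every sample. With the length of the longest transcript in place of all exons, Jup came to 25.6 and 19.6 CPM per kilobase in control and dcKO_hGFAP-Cre, and Pkp2, at 0.256, then stood above Dsc3, at 0.231, in the mutants.

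**Figure D3:**
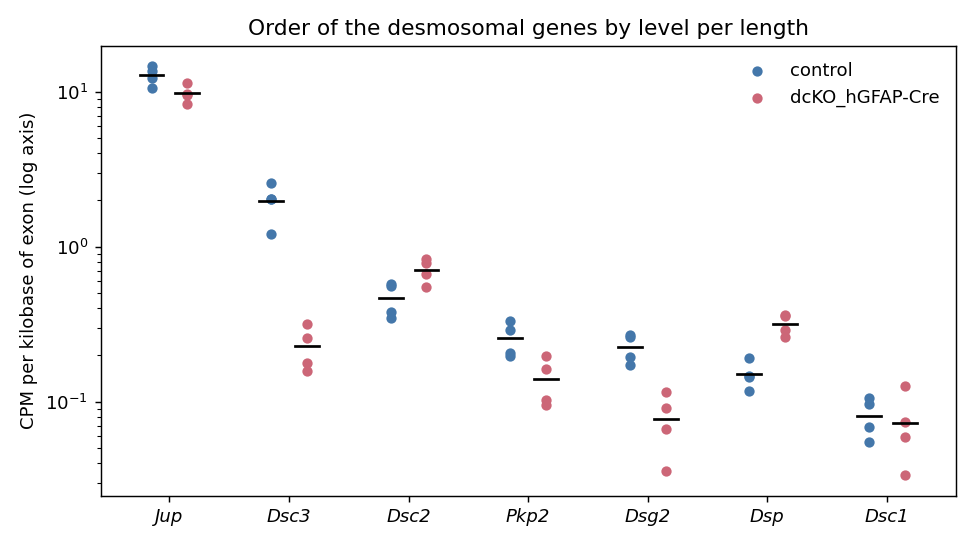
Level of each desmosomal gene in CPM per kilobase of exon on a log axis, with points for the 4 control and the 4 dcKO_hGFAP-Cre samples and black lines for their means. Jup, at 12.8 and 9.77, stands above all others, and Dsc3 goes from 1.96 in control to 0.228 in the mutants.

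Genes whose levels followed a member's most closely were found by the root mean square difference of log2 levels, each centred on its mean over the 8 samples, among 14615 genes. For Dsc3 these were Enpp6, Bcas1 and Trpa1, at distances of 0.283, 0.293 and 0.374. Their means in control and dcKO_hGFAP-Cre were 2.49 and 0.111 CPM for Enpp6, 17.1 and 1.89 CPM for Bcas1 and 5.34 and 0.437 CPM for Trpa1, so each was low in the mutants like Dsc3. Peg3, Dock10 and Gm28370 came closest to Dsc2 (0.0650 to 0.0803), and 2610035F20Rik, Lamb2 and Rftn1 to Dsp (0.0856 to 0.109). For Jup they were Adcy3, Efna2 and Tmcc1 (0.0373 to 0.0583), for Pkp2 Mal2, Tmem88b and 1700019D03Rik (0.126 to 0.131), and for Dsg2 Atp1b2, Atp2b1 and Rap1gap2 (0.151 to 0.163). With library totals only 1 of the 3 genes named for Dsg2 was found again. The group difference on which the members were chosen enters these distances, so a short distance is no support of its own. The 0.5 CPM added before the log also shrinks differences of genes at low levels. Dsg2, at a log2 fold change of -1.50, came nearest to Atp1b2, at -0.91.

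Desmosomes work beside other junctions and filaments, and 68 further genes of 5 lists were read in the same fit. Of these, 48 could be tested: 14 fell (29.2%), 8 rose (16.7%) and 26 did not pass the test, beside 18.9% and 18.6% of all genes. The other desmosome genes are the desmogleins and plakophilins described above and Perp, a tetraspan protein of desmosomes. Perp was the 1 gene of these 8 with enough counts for the test and did not pass it, at 6.48 ± 0.457 CPM in control and 6.63 ± 1.07 CPM in dcKO_hGFAP-Cre (SD, n = 4; log2 fold change 0.03, edgeR adjusted p = 0.899).

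**Figure D4:**
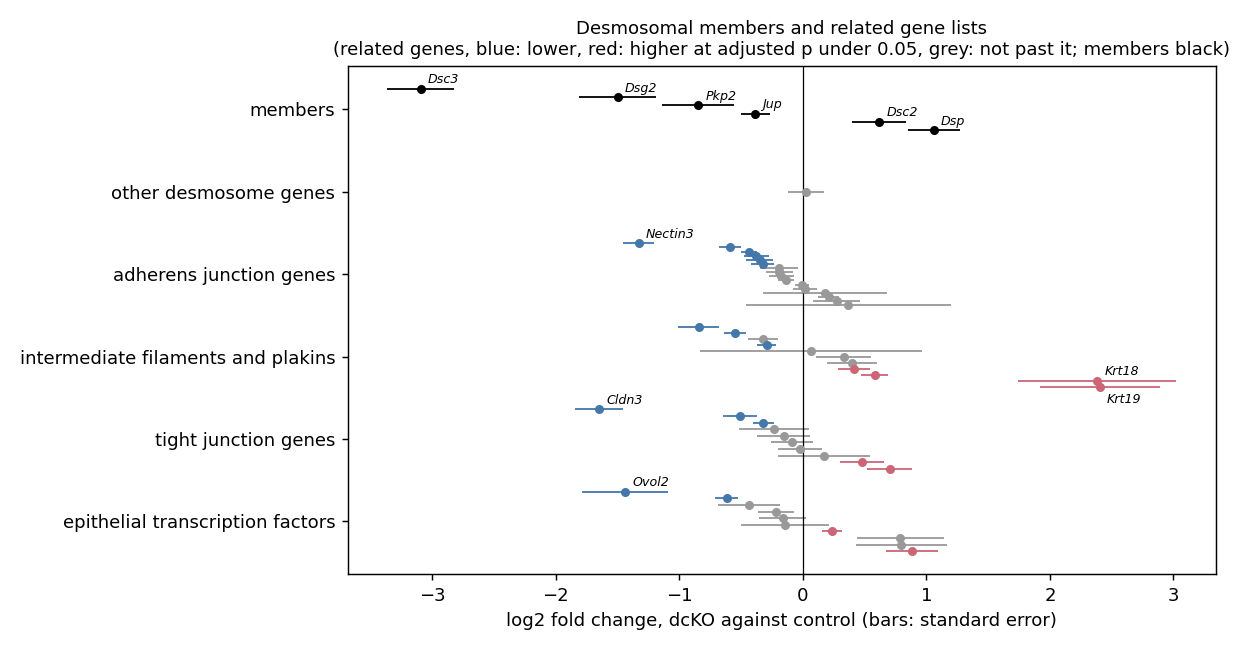
Log2 fold change of dcKO_hGFAP-Cre against control for the tested desmosomal members (black) and the tested genes of 5 related lists, with bars for the standard error; blue and red points are past an adjusted p of 0.05 as lower and higher, and grey points are not. Adherens junction genes past the threshold lie left of 0, from Nectin3 at -1.33 to Arvcf at -0.32, while Krt18 and Krt19 lie far to the right at 2.38 and 2.40.

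Adherens junctions anchor actin and are the main cadherin junctions of neural tissue. Of their 16 genes, all tested, 6 fell and 10 did not pass the test, with a median log2 fold change of -0.18 beside 0.02 over all genes. Nectin3, an adhesion receptor at contacts between neural cells, measured 74.6, 74.6, 71.9 and 73.4 CPM in the controls and 31.7, 21.2, 34.8 and 29.5 CPM in dcKO_hGFAP-Cre. It fell by 1.33 on the log2 scale (SE 0.13, edgeR adjusted p = 1.16e-05), and no mutant sample reached a control. Pkp4 and Ctnnd2, armadillo proteins of the p120 family, fell by 0.59 and 0.44 (adjusted p = 2.75e-04 and 3.48e-04 in edgeR), and Cdh2, the N-cadherin of neural cells, fell by 0.38 (edgeR adjusted p = 0.0127). Nectin1 and Arvcf, with log2 fold changes of -0.35 and -0.32, lay outside the threshold without control replicate 3 (-0.29 and -0.28), and Nectin1 also without control replicate 4 (-0.33) or dcKO_hGFAP-Cre replicate 1 (-0.33). Without dcKO_hGFAP-Cre replicate 4, 1 gene of the list passed as higher. Beta-catenin (Ctnnb1), the closest relative of plakoglobin, did not pass the test, at 915 ± 5.37 CPM in control and 911 ± 28.6 CPM in dcKO_hGFAP-Cre (SD, n = 4; log2 fold change -0.01, SE 0.06, edgeR adjusted p = 0.938). Scaling by library totals moved the median over all genes from 0.02 to 0.15 on the log2 scale, and with it Cdh2, Nectin1 and Arvcf (log2 fold changes -0.26, -0.23 and -0.20) no longer passed. The same 3 genes did not pass without dcKO_hGFAP-Cre replicates 1 and 2 (-0.33, -0.31 and -0.23) or without replicates 1 and 3 of both groups (-0.23, -0.20 and -0.28), and in the last of these Ctnnd2 did not either (-0.38).

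Intermediate filaments are the cables that desmoplakin holds, and plakins are the linkers of its family. Of 17 such genes 11 were tested, 3 of which fell and 4 rose, with a median log2 fold change of 0.33. The keratin Krt19 measured 0.184, 0, 0.0996 and 0.0694 CPM in the controls and 0.513, 0.424, 0.512 and 0.513 CPM in dcKO_hGFAP-Cre, so it was low in both groups but higher in every mutant sample. It rose by 2.40 on the log2 scale (SE 0.49, edgeR adjusted p = 0.00239). Krt18, a keratin of simple epithelia, measured 0.276, 0.148, 0.232 and 0.382 CPM in the controls and 1.92, 2.84, 0.546 and 0.453 CPM in dcKO_hGFAP-Cre, and rose by 2.38 (SE 0.64, edgeR adjusted p = 0.0145). Krt19 and Krt18 reached the minimum count of the filter through the mutant samples, where they are high. The samples with the most Krt18, dcKO_hGFAP-Cre replicates 1 and 2, are those with the most choroid plexus marker RNA (below), and without both the log2 fold change was 0.90 and did not pass the test. It also missed the threshold in limma-voom (1.92) and with replicates 1 and 3 of both groups left out (2.49). Its usual partner Krt8 had too few counts for the test, with 1.27 CPM in dcKO_hGFAP-Cre replicate 2 and at most 0.230 CPM in all other samples. The keratins of stratified epithelia Krt5, Krt14, Krt15 and Krt17 stayed at or under 0.239 CPM in every sample. Among filaments of neural cells, vimentin (Vim) rose by 0.58 and nestin (Nes) fell by 0.84 (adjusted p = 0.0015 and 0.00278 in edgeR). The plakins Dst and Macf1 fell by 0.55 and 0.29, but Macf1 did not pass with library totals (-0.17), without dcKO_hGFAP-Cre replicates 1 and 2 (-0.22) or without replicates 1 and 3 of both groups (-0.24), and Dst did not in the last of these (-0.45). The keratin Krt10, at a log2 fold change of 0.41, lay outside the threshold without control replicate 2 or 3 (0.36 and 0.38) or without dcKO_hGFAP-Cre replicate 2 or 3 (0.35 and 0.36), with a block for the replicate number (0.41), without dcKO_hGFAP-Cre replicates 1 and 2 (0.39) and without replicates 1 and 3 of both groups (0.45).

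Tight junctions seal the space between epithelial or endothelial cells. Of 13 genes 10 were tested, 3 of which fell and 2 rose, with a median log2 fold change of -0.12. Cldn3, a sealing claudin, measured 6.67, 5.27, 7.90 and 8.26 CPM in the controls and 1.80, 2.71, 1.98 and 2.48 CPM in dcKO_hGFAP-Cre. It fell by 1.65 (SE 0.19, edgeR adjusted p = 5.85e-05), with no overlap of the groups. Tjp1, a scaffold of the junction, fell by 0.32, and Tjp3, of the same family, rose by 0.70 (adjusted p = 0.0119 and 0.0092 in edgeR). Cingulin (Cgn), at a log2 fold change of 0.48, was past the threshold by little and lay outside it without any 1 sample except dcKO_hGFAP-Cre replicate 3 (0.29 without dcKO_hGFAP-Cre replicate 4, and 0.43 to 0.52 without each of the other 6), which makes the count of genes that rose 1. Without dcKO_hGFAP-Cre replicates 1 and 2 together, Tjp1 and Tjp3 (log2 fold changes -0.31 and 0.51) did not pass, nor did Cgn (0.55). Tjp1 also did not with library totals (-0.20) or without replicates 1 and 3 of both groups (-0.36), and Cgn did not in limma-voom (0.46), with DESeq2 size factors (0.48) or with a block for the replicate number (0.44).

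Transcription factors that promote or repress epithelial genes were the last list. Of 14 genes 10 were tested, 2 of which fell and 2 rose, with a median log2 fold change of -0.15. Ovol2, a zinc finger factor of epithelia, measured 0.828, 0.838, 0.896 and 1.15 CPM in the controls and 0.257, 0.127, 0.512 and 0.423 CPM in dcKO_hGFAP-Cre, and fell by 1.44 (SE 0.35, edgeR adjusted p = 0.00682). It reached the minimum count of the filter through the controls, where it is high. Klf4, a factor of epidermal differentiation, rose by 0.88 (SE 0.21, edgeR adjusted p = 0.00594), and all mutant samples were above all controls. Without dcKO_hGFAP-Cre replicates 1 and 2, Ovol2 (log2 fold change -0.99) and Klf4 (0.66) did not pass. Of the repressors known to bind the box shown in the promoters, Zeb2 fell by 0.62 (SE 0.09, edgeR adjusted p = 3.85e-04), and Snai1 and Snai2 did not pass the test, at log2 fold changes of 0.79 and -0.43. Zeb1, at 0.24 (SE 0.08), lay outside the threshold without control replicate 3 or 4 (0.23 and 0.18) or dcKO_hGFAP-Cre replicate 1, 2 or 3 (0.20, 0.25 and 0.22), and without control replicate 3 or 4 or dcKO_hGFAP-Cre replicate 1 or 3 the count of factors that rose was 1. It also lay outside without a filter (0.23), with a block for the replicate number (0.24), without dcKO_hGFAP-Cre replicates 1 and 2 (0.23) and without replicates 1 and 3 of both groups (0.21). Zeb2 shares 653 bases of exon with the antisense gene Zeb2os, which held 280 counts. The grainyhead factor Grhl2 and the p63 gene Trp63, drivers of epithelial identity, stayed at or under 0.345 CPM in every sample.

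Dissected cortex can carry other tissues that have desmosomes, so 11 lists of marker genes were summed in each sample and compared by an exact two-sided permutation test, whose smallest p for 4 against 4 samples is 0.0286, which came to 0.0524 once adjusted over the 11 lists, so no list passed 0.05. The 12 choroid plexus genes summed to 13.5, 18.7, 10.1 and 10.1 CPM in the controls and to 639, 1212, 28.2 and 14.5 CPM in dcKO_hGFAP-Cre, with Ttr the most abundant (exact p = 0.0571, adjusted 0.0786). Of the 9 tested, 3 rose and 6 did not pass. The sum was thus by far the highest in dcKO_hGFAP-Cre replicates 1 and 2, and in replicate 4 it was within the range of the controls. Otx2, a transcription factor of the choroid plexus and other brain regions, is 1 of the 3, at most 0.276 CPM in the controls and at least 3.07 CPM in every mutant sample, and reached the minimum count of the filter through the mutant samples, where it is high. In that replicate Dsp was at 2.81 CPM, Dsc2 at 4.41 CPM and Dsc3 at 0.966 CPM. Without replicates 1 and 2 the log2 fold changes were 0.87 for Dsp, 0.59 for Dsc2, -2.99 for Dsc3, -1.12 for Dsg2, -0.51 for Pkp2 and -0.27 for Jup, and Dsc2, Pkp2 and Jup were no longer past the threshold. The part of choroid plexus RNA in these levels was not tested.

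The 14 genes of the leptomeninges and arachnoid summed to 256, 128, 375 and 132 CPM in the controls and to 688, 186, 500.1 and 46.8 CPM in dcKO_hGFAP-Cre (exact p = 0.457), with Igf2 the most abundant, and the 13 tested did not pass edgeR's test. Meningeal marker RNA varied within both groups, and its part in the levels of the members was not tested. With replicates 1 and 3 of both groups left out, the log2 fold changes were 1.30 for Dsp, 0.86 for Dsc2, -3.11 for Dsc3, -1.68 for Dsg2, -0.96 for Pkp2 and -0.38 for Jup, and Dsc2, Pkp2 and Jup were no longer past the threshold. The 8 ependymal genes summed to 26.5, 24.2, 26.6 and 22.1 CPM in the controls and 16.3, 20.1, 12.8 and 12.4 CPM in dcKO_hGFAP-Cre (exact p = 0.0286, adjusted 0.0524). Of 7 tested, 4 fell and 1 rose, Foxj1 was the most abundant, and Ccdc153, which reached the minimum count of the filter through the controls, and Tmem212 each had reads in only 1 of the 4 mutant samples.

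Markers of desmosome-bearing tissues from outside the brain were read as well. The surface epithelium list summed to 11.7 ± 1.25 CPM in control and 14.4 ± 1.47 CPM in dcKO_hGFAP-Cre (SD, n = 4, exact p = 0.0571). Krt10 was the most abundant and the 1 of 3 tested that rose. Of its other genes, Krt5, Krt14, Krt15, Col17a1 and Trp63 were under 1 CPM on average over all 8 samples. Sfn measured 1.29 and 1.33 CPM, and Lgals7 1.37 and 1.23 CPM, in control and dcKO_hGFAP-Cre. The cardiac muscle list summed to 4.02 ± 0.765 and 6.45 ± 1.61 CPM (SD, n = 4, exact p = 0.0286, adjusted 0.0524), with Myh7 the most abundant. Tnni3 was the 1 of 3 tested that rose. Scaled for depth, it met the filter on low counts in all samples of only dcKO_hGFAP-Cre, where it is high. Tnnt2, Tnni3, Actc1 and Nppa were under 1 CPM on average over all 8 samples (Tnni3 at 1.21 CPM in dcKO_hGFAP-Cre alone).

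Marker sums of cortical cell types are given next, with the genes of each list past edgeR's threshold (18.9% of all genes tested were past it as lower and 18.6% as higher). The 8 genes of cortical excitatory neurons, whose presence fits the tissue label, summed to 1881, 1879, 2004 and 1970 CPM in the controls and 1096, 1039, 1079 and 1194 CPM in dcKO_hGFAP-Cre, with 6 of 8 past the threshold as lower and Neurod6 the most abundant. The 6 genes of oligodendrocyte precursors summed to 422, 442, 430 and 456 CPM and to 250.5, 241, 312 and 234 CPM, with all 6 past it as lower and Pdgfra the most abundant. The 8 endothelial genes summed to 205, 221, 267 and 232 CPM and to 190, 171, 194 and 113 CPM, with 5 of 8 past it as lower and Cldn5 the most abundant. The 6 microglial genes went the other way, with 128, 124, 100.2 and 93.1 CPM in the controls and 167, 181, 169.9 and 159 CPM in the mutants, 4 of 6 past the threshold as higher and Csf1r the most abundant. For these 4 lists the groups did not overlap (exact p = 0.0286, adjusted 0.0524). The sums of the 7 genes of astrocytes and radial glia (1644 ± 38.9 and 1581 ± 680 CPM, exact p = 0.914, Fabp7 the most abundant) and of the 7 of dentate granule neurons (82.1 ± 6.39 and 83.8 ± 6.44 CPM, exact p = 0.743, Stxbp6 the most abundant) did not differ beyond their SDs (n = 4). The astrocyte and radial glia genes did not pass edgeR's test. Of the dentate genes, 2 were past the threshold as lower and 1 as higher. These were C1ql3, Lct and Dock10, at log2 fold changes of -0.93, -1.22 and 0.55 (adjusted p = 2.21e-04, 0.00766 and 0.0141 in edgeR). Scaled for depth, Lct met the filter on low counts in all samples of only the control group, where it is high. The sums of the excitatory neuron, oligodendrocyte precursor, endothelial and ependymal markers were thus low in the same samples as Dsc3 and Dsg2. The microglial and cardiac sums were high in the same samples as Dsp. Not all genes followed the sum of their list. The ependymal Dynlrb2 rose (log2 fold change 0.905), the microglial P2ry12 was at 0.006, and the groups overlapped for the cardiac Myh6 and Myh7. The part of cell composition in the levels of the desmosomal genes was not tested.

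**Figure D5:**
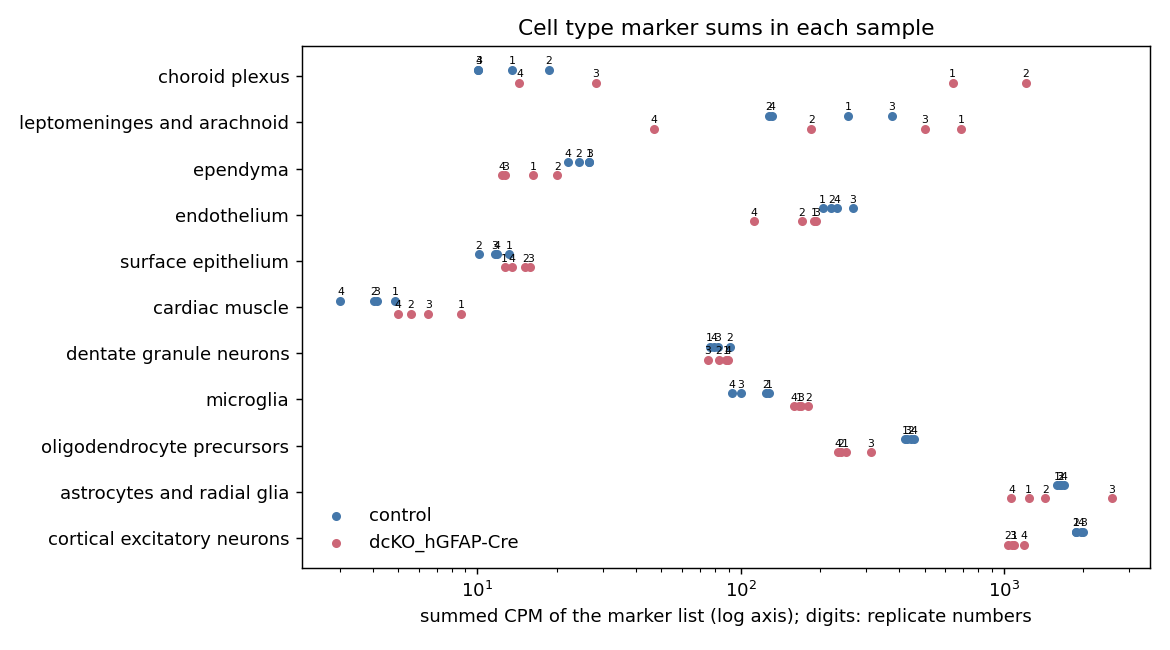
Summed CPM of 11 marker lists in each sample on a log axis, with digits for the replicate numbers. The choroid plexus sum of dcKO_hGFAP-Cre replicates 1 and 2 (639 and 1212 CPM) stands far above the others, at 10.1 to 28.2 CPM, and the excitatory neuron sums separate the groups, at 1879 to 2004 CPM against 1039 to 1194 CPM.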

How the data were processed

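RNA from the dTel of 4 control and 4 dcKO_hGFAP-Cre samples was sequenced from TruSeq v2 libraries, a kit that does not mark the strand, and the authors deposited raw counts per gene, made by aligning reads to mm10 and counting with featureCounts. Aligner, annotation, strand setting and treatment of reads with several matches are not given in the sources used here, so overlapping genes and close copies are uncertain. Of 48709 identifiers, 48349 were matched to GENCODE M21. Groups follow the labels.

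edgeR 4.0.16 (R 4.3.3) was run on the whole table with TMM scaling, its filter on low counts (minimum count 10), robust quasi-likelihood F tests and Benjamini-Hochberg adjustment, threshold 0.05, without a block, and was checked on simulated data, where DESeq2 and a term for the replicate number made more false calls, so their counts are to be read with caution. A standard error is the fold change divided by the root of F. CPM used TMM library sizes, and gene length was the union of exons. Ratios of sparse counts carry exact 95% intervals. Likeness used log2(CPM + 0.5).

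The members and lists were chosen with earlier results of these data known. Named are the members, the deleted genes, up to 4 of the largest changes past the threshold in each related list (further ones were named after their values were seen), genes beside the cadherin cluster, the leading and near-absent markers, and 3 genes most like each member averaging at least 1 CPM. Some genes that this rule names are not reported here.

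Alternatives were DESeq2 1.42.0, limma-voom 3.58.1, DESeq2 size factors, library totals, no filter, a stricter one (10 counts or more in each sample), a term for the lane or for the replicate number, each sample left out, dcKO_hGFAP-Cre replicates 1 and 2 left out, longest transcripts as lengths and, chosen after seeing the data, replicates 1 and 3 of both groups left out. No pair of replicates matched within sampling noise, so each was counted as 1 sample.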

Additional observations from a re-analysis of the deposited data

Results flagged for a closer look

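In dcKO_hGFAP-Cre, the Krt19 level of replicate 2, 0.424 CPM, lay apart from the other 3 samples, which were between 0.512 and 0.513 CPM. Their counts were 10 in replicate 2 and 12, 15 and 17 in replicates 1, 3 and 4, and all 4 samples were above the controls, the highest of which was at 0.184 CPM. Chance sets 1 sample apart in about 1 of 20 groups: among 86 groups of 4 samples looked at, 4.3 would be set apart by chance, and 1 was.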

How the results depend on the processing

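The members were chosen on this contrast, so their values in other fits are a description that supports nothing. Dsc3, Dsg2 and Dsp kept their direction and their side of the threshold in every alternative that could be run (18, 17 and 18 fits), with log2 fold changes from -3.31 to -2.94, from -1.75 to -1.12 and from 0.87 to 1.30. Dsc2, Pkp2 and Jup kept their direction in 18 fits each and lost their side of the threshold in 7 each, with log2 fold changes from 0.49 to 0.86, from -1.05 to -0.51 and from -0.47 to -0.26. Among the members tested, the deleted genes, the genes past the threshold in the related lists, and B4galt6, Garem1 and Ttr, none changed sign. The other genes named from marker lists were not followed through these fits. Of all genes tested, 3128 were lower and 3074 higher. These were 1581 and 1388 with dcKO_hGFAP-Cre replicates 1 and 2 left out, 1521 and 1485 with replicates 1 and 3 of both groups left out (chosen after seeing the data), as fewer samples were fitted, and 2375 to 3273 and 2199 to 3308 with single samples left out. Library totals gave 2102 lower and 4584 higher and moved the median log2 fold change from 0.02 to 0.15. Members lower were 4, and 2 with library totals, 2 with each of the leave-outs of several samples, and 2 to 4 with single samples left out; members higher were 2, and 1 with each leave-out of several samples and 1 to 2 with single ones. Of the other desmosome genes, 0 were higher in the main test and 1 (Dsg1c) with DESeq2, without a filter, without dcKO_hGFAP-Cre replicates 1 and 2, and in 5 of the 8 fits without a single sample (0 to 1). Adherens junction genes lower were 6, and 3 with library totals, 3 without dcKO_hGFAP-Cre replicates 1 and 2, 2 without replicates 1 and 3 of both groups, and 4 to 7 without single samples. Of them 0 were higher in the main test, 1 with library totals, 1 with the stricter filter of 10 counts or more in each sample and 0 to 1 without single samples. Intermediate filament and plakin genes higher were 4, and 2 with the stricter filter and in each leave-out of several samples. Tight junction genes lower were 3, and 1 without dcKO_hGFAP-Cre replicates 1 and 2; those higher were 2, and 1 with limma-voom or DESeq2 size factors, 0 without dcKO_hGFAP-Cre replicates 1 and 2 and 1 to 2 without single samples. Epithelial transcription factors lower were 2, and 1 with the stricter filter or without dcKO_hGFAP-Cre replicates 1 and 2; those higher were 2, and 1 without a filter or without replicates 1 and 3 of both groups, 0 without dcKO_hGFAP-Cre replicates 1 and 2 and 1 to 3 without single samples. The stricter filter removed Dsg2, Krt18, Krt19, Ovol2 and Ttr, which have no value there. Beyond fewer genes or samples, the causes were not tested.

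The labels number the replicates 1 to 4 in both groups, and samples with the same number share a lane. Their deviations were weakly correlated (0.18, -0.10, 0.19 and -0.06), within the range for unlike numbers (-0.325 to 0.295). So few correlations cannot decide whether the numbers pair the samples, for example by litter, and the main test used no pairing. A block for the replicate number gave 2982 lower and 2932 higher genes, 1 tight junction gene and 1 epithelial transcription factor higher in place of 2 each, and 3 filament and plakin genes higher in place of 4, with Krt10 (log2 fold change 0.41) no longer past the threshold. The 6 tested members kept their side of the threshold.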

Other observations

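Within the lists, single mutant samples carried some of the highest values. The astrocyte filament gene Gfap measured 89.5, 86.0, 79.3 and 86.2 CPM in the controls and 24.2, 32.2, 273 and 26.2 CPM in dcKO_hGFAP-Cre, so replicate 3 was above every control and the other mutant samples were below every control. The summed markers of astrocytes and radial glia were likewise highest in that replicate, at 2576 CPM, beside 1599 to 1692 CPM in the controls and 1070 to 1437 CPM in the other mutant samples. In the same replicate Dsc3, at 1.71 CPM, Dsg2, at 0.955 CPM, and Pkp2, at 1.06 CPM, were the highest of the mutant samples. Dsp, at 2.52 CPM, and Dsc2, at 2.90 CPM, were the lowest there, while Jup and Dsc1 lay between. This rests on 1 sample, the only mutant on lane 6, so its lane and its glial marker level cannot be told apart. Cldn2, a pore-forming claudin of the choroid plexus, had too few counts for the test and measured 0.0920, 0.148, 0.0996 and 0 CPM in the controls and 1.97, 1.74, 0.239 and 0 CPM in dcKO_hGFAP-Cre, with its highest values in the samples that had the most Ttr.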
